A study of Mus musculus with 45 samples.

Results

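The first 30 minutes of the inflammatory response were examined in primary mouse embryonic fibroblasts (MEFs) that lack p53. The comparison took the 6 libraries at 0.5 h, from the lines KO-1 and KO-2 after interleukin-1 beta (IL-1b), tumour necrosis factor (TNF) or lipopolysaccharide (LPS). It set them against the 6 libraries of the same lines at 0 h of the same series, so that 12 of the 45 libraries in the study entered. All 12 libraries came from C57BL/6 embryos of genotype p53-/-. The cells had been starved overnight in 0.5% bovine calf serum before the cytokine (10 ng/ml of IL-1b or of TNF) or LPS (100 ng/ml) was added to the medium. The 0 h libraries had the same starvation and no stimulus. None of the 45 libraries was taken at 0.5 h without a stimulus, so effects of stimulus, time and handling cannot be told apart. WT littermate MEFs of the same strain, with 1 library for each stimulus at 0 h and at 0.5 h, served as the reference genotype. The study also followed the cells at 1, 3 and 8 h, and its design text gives the p53-/- cells as a longer-lived stand-in for WT cells, so that the comparison of genotypes was a control. The design text calls KO-1 and KO-2 biological replicates. The labels do not name the embryos, and 2 lines are few, so the p-values measure the spread between these libraries.

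IL-1b and LPS act through receptors with a shared intracellular domain and the adaptor MyD88, while LPS can also act through Ticam1, and TNF acts through its own receptor and TRAF proteins. All of them lead to the kinases that free NF-kB from its inhibitor IkB alpha, and to the MAP kinases that act on factors already bound at promoters, among them SRF with its ternary complex partners and CREB. Genes that respond without new protein synthesis are called immediate early genes. Many are short, and many encode transcription factors, phosphatases or RNA-binding proteins that later end the response.

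The 12 libraries held 7311825 to 15355994 counts in genes. Trp53, the gene of p53, lay between 50.6 and 68.8 CPM (counts scaled to the total of the library) in the 12 p53-/- libraries and between 159 and 198 CPM in the 6 WT libraries, without overlap. The deleted stretch of Trp53 is not given in the sources used here, and the counts left in p53-/- cells were not resolved by exon. Markers of fibroblasts summed to 35200 to 39600 CPM at 0 h and 34800 to 40100 CPM at 0.5 h, and none of the 14 was called. Markers of macrophages were present too, with 15 of 15 measured and sums of 360 to 464 CPM at 0 h and 346 to 492 CPM at 0.5 h. In that list Cd14 alone was called. Of the 7 erythroid markers 4 had no count. Endothelial, epithelial, muscle and neural markers summed to at most 26.1, 61.7, 156 and 297 CPM in a 0.5 h library, and none was called. Over all genes tested 1.67% were called higher and 1.63% lower, so marker lists of these sizes would hold few calls or none.

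With stimulus series and line as blocks, 214 of 12778 genes tested were called higher at 0.5 h (1.67%) and 208 lower (1.63%), at an adjusted p under 0.05 in edgeR's quasi-likelihood test. The rises were the larger changes. At least 2-fold, 55 genes rose (0.43%) and 11 fell (0.0861%). In the 6 pairs of 0.5 h and 0 h library of a line and series, 170 of the 214 were higher in all 6 pairs and 166 of the 208 lower in all 6. For 111 of the 214, every 0.5 h library lay above every 0 h library, a pattern that 0.97% of all genes tested showed. For 97 of the 208, every 0.5 h library lay below, against 1.03% of all genes. Each stimulus alone moved 211 of the 214 and 208 of the 208 in the pooled direction. The genes were called on these same libraries, so the counts over pairs, ranges and stimuli describe the calls and are no separate support. The counts depended on single libraries. Leaving out the KO-2 library after TNF at 0.5 h gave 345 higher, leaving out a KO-1 library of the TNF series (0 h or 0.5 h) gave 132 or 135, and KO-2 fitted alone gave 78. Falls numbered 122 to 138 without any of the KO-1 libraries of the IL-1b and TNF series, and 12 with KO-2 alone.

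**Figure D1:**
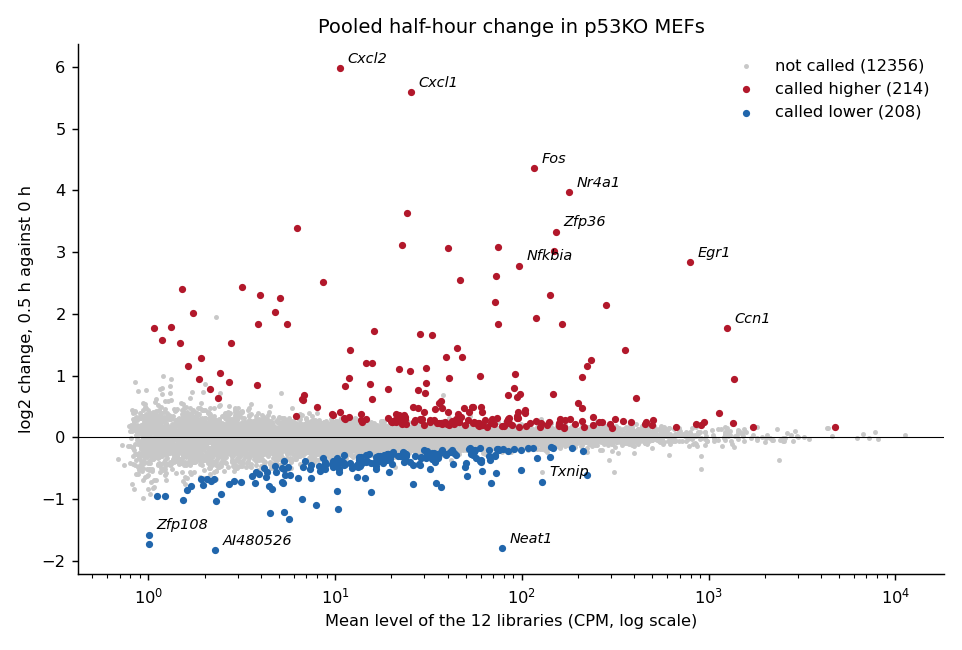
Each point is 1 of 12778 genes, with the mean level of the 12 libraries in CPM on a log axis and the pooled log2 change on the vertical axis. Red points were called higher (214) and blue points lower (208); the rises reach a log2 change of 5.98 (Cxcl2), while the largest fall is -1.82 (AI480526).

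Immediate early transcription factors were among the largest rises. Fos, which pairs with Jun proteins as AP-1, lay between 8.93 and 12 CPM in the 6 libraries at 0 h. At 0.5 h it stood at 243 and 271 CPM after IL-1b (KO-1, then KO-2), 190 and 238 after TNF, and 174 and 215 after LPS. All 6 stimulated libraries were far above all 6 at 0 h, with a pooled log2 change of 4.36 ± 0.08 (SE, adjusted p = 1.14e-16). Nr4a1, an orphan nuclear receptor, rose from 21.4 ± 1.45 to 337 ± 51.5 CPM (SD, n = 6), with a log2 change of 3.97 ± 0.08 (adjusted p = 2.83e-16). Its lowest value at 0.5 h, 244 CPM, came from KO-1 after LPS and its highest, 379 CPM, from KO-2 after IL-1b. Fosb, a partner of Jun like Fos, rose by a log2 change of 3.64 (adjusted p = 1.13e-14), and Atf3, a stress-induced bZIP factor, by 3.08 (adjusted p = 6.43e-14).

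The zinc finger factors of the Egr family rose together. Egr1 had 180 to 212 CPM at 0 h and 1119 to 1520 CPM at 0.5 h, and the groups did not overlap. Its log2 change was 2.84 ± 0.06 (adjusted p = 6.32e-16). Egr2 rose from 13.5 ± 2.16 to 79.7 ± 10.6 CPM and Egr3 from 2.59 ± 0.66 to 14.6 ± 3.91 CPM, with log2 changes of 2.56 (adjusted p = 2.66e-12) and 2.51 (adjusted p = 9.59e-10). The list of Egr factors and their Nab co-repressors had 3 of 5 tested members higher and 0 lower, with a median log2 change of 2.5, where the median over all genes tested was 0.00057. The AP-1 list had 6 of 8 higher and 0 lower (median 1.1). Of 11 Atf3, Maf, Nr4a and Crem genes 5 were higher and 0 lower (median 0.42), and of 13 Kruppel-like factors 3 were higher and 0 lower (median 0.027). The latter were Klf2 (log2 change 1.68), Klf6 (1.42) and Klf4 (0.48). Jun rose from 92.7 to 109 CPM at 0 h to 282 to 577 CPM at 0.5 h, and Junb by a log2 change of 1.84 (adjusted p = 3.37e-09).

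Among 30 further immediate early genes 20 rose and 1 fell (median 0.57). Btg2, an antiproliferative cofactor of mRNA deadenylation, rose from 31.8 ± 1.47 to 265 ± 66.0 CPM. Arc, best known from neurons, rose from 4.72 ± 0.42 to 40.9 ± 8.96 CPM (log2 change 3.11, adjusted p = 1.13e-14). Ier2, a small nuclear protein, rose from 46.0 ± 2.29 to 235 ± 67.5 CPM (log2 change 2.31, adjusted p = 1.09e-11). None of these genes had a 0.5 h library within the range of its 0 h libraries. The gene of this list that fell was Ier5l (log2 change -0.28, adjusted p = 0.0207), named because it was the exception. A further 2 RNAs, outside the lists, were also among the 20 largest rises. Rgs1, a regulator of G-protein signalling, rose from 1.0 ± 0.23 to 5.36 ± 2.56 CPM, and Gm17024, annotated as an intronic RNA on the sense strand, from 0.47 ± 0.19 to 2.55 ± 1.16 CPM. Reads of Gm17024 and of its host transcript cannot be told apart in these counts.

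Genes that restrain MAP kinase signalling were called in 4 of 14 cases, all higher (median 0.059). Dusp1, a nuclear phosphatase of p38 and JNK, had 17.1 to 22.7 CPM at 0 h and 100 to 148 CPM at 0.5 h. Its log2 change of 2.61 ± 0.05 (adjusted p = 1.14e-16) varied little with the stimulus, at 2.69 (IL-1b), 2.59 (TNF) and 2.53 (LPS). Dusp5 and Dusp8, phosphatases of the same family, rose by log2 changes of 0.89 and 0.96, and Spry2, an inhibitor of receptor tyrosine kinase signalling, by 0.49. Of 17 SRF, actin and CCN genes 6 rose and 0 fell (median 0.14). Ccn1, a secreted matrix protein and a target of SRF and YAP, rose from 567 ± 33.0 to 1939 ± 144 CPM (log2 change 1.77 ± 0.05, adjusted p = 1.13e-14). Ccn2, its relative, rose from 933 ± 99.4 to 1806 ± 184 CPM. Among 11 growth factor ligands 5 rose and 0 fell (median 0.25), led by Ereg (log2 change 1.42), an EGF receptor ligand, and Lif (1.12), a cytokine of the IL-6 family.

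**Figure D2:**
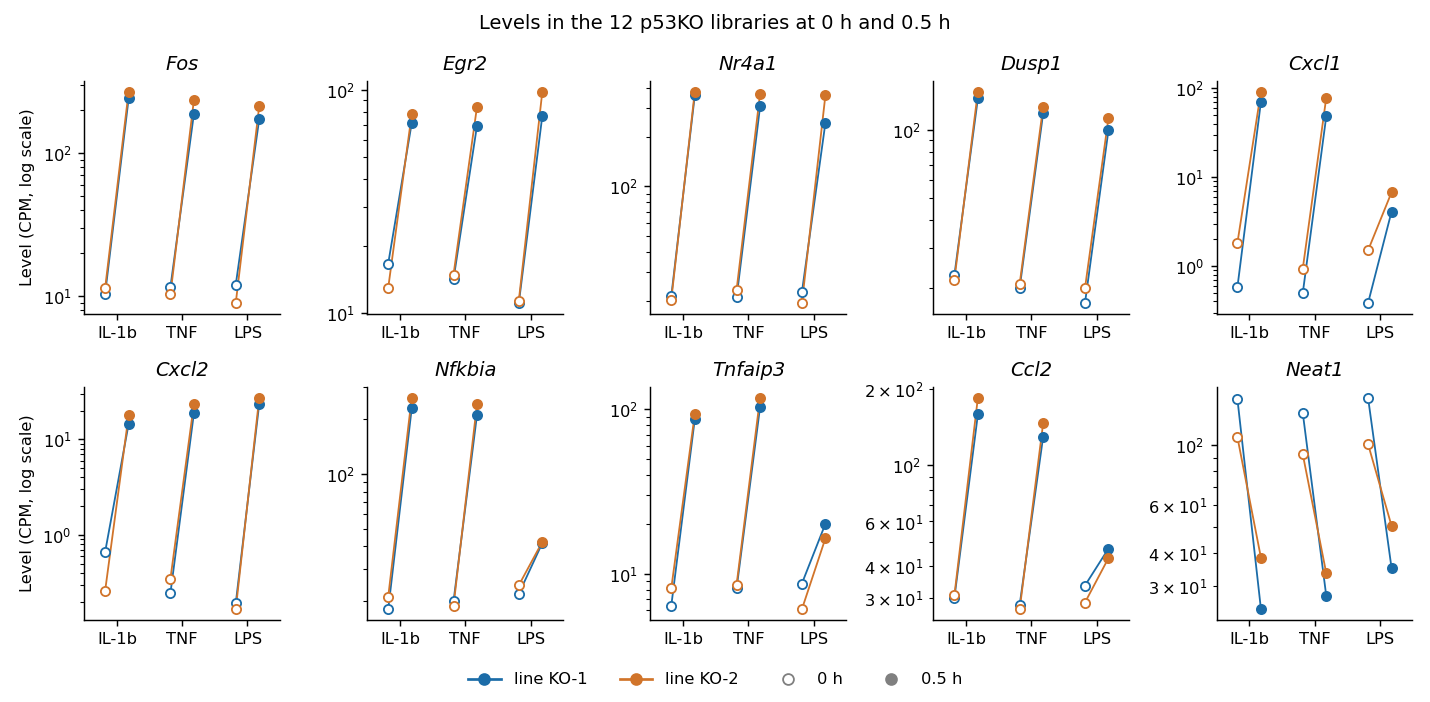
Each panel shows a gene's level in CPM on a log axis, with open circles for 0 h and filled circles for 0.5 h, joined within a line (KO-1 blue, KO-2 orange) for each of the 3 stimuli. Fos, Egr2, Nr4a1, Dusp1 and Cxcl2 rose steeply after each stimulus, Cxcl1, Nfkbia, Tnfaip3 and Ccl2 rose less after LPS, and Neat1 fell in all 6 pairs.

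Of the lists of IkB genes with their cofactors and of A20, TRAF and cIAP regulators, Nfkbia, Nfkbiz and Tnfaip3 rose and no other gene was called. Nfkbia, which encodes IkB alpha, had 18 to 24.4 CPM at 0 h. It reached 230 and 263 CPM after IL-1b, 212 and 243 after TNF, and 41.7 and 42.3 after LPS. All 6 libraries exceeded the 0 h range, but the LPS libraries were far below the others, and the pooled log2 change of 2.78 ± 0.31 (adjusted p = 1.19e-05) averaged over these sizes. Nfkbiz, a nuclear IkB protein and cofactor, rose from 25.1 ± 4.47 to 118 ± 40.6 CPM. Nfkbia and Nfkbiz were the 2 genes called among 6 IkB and cofactor genes tested (median 0.37). Tnfaip3, which encodes the deubiquitinase A20, rose from 7.69 ± 1.14 to 72.6 ± 43.3 CPM and was the 1 gene called among 12 A20, TRAF and cIAP regulators (median 0.02). Of the 5 NF-kB subunit genes 0 were called, which is no departure from the 1.67% of all genes called higher and 1.63% lower, with summed levels of 210 to 231 CPM at 0 h and 204 to 243 CPM at 0.5 h. Zfp36, which encodes the mRNA decay factor tristetraprolin, rose from 26.1 ± 3.13 to 280 ± 105 CPM (log2 change 3.33 ± 0.15, adjusted p = 4.03e-11). It led the 4 of 9 message decay factors that rose (median 0.21). Of these, Rc3h1 and Zfp36l1 lost their calls under 21 and 14 of 28 alternative settings.

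Chemokines of neutrophils and monocytes were induced from low levels. Cxcl2, a neutrophil attractant, had 0.17 to 0.67 CPM at 0 h, from 20 counts over the 6 libraries. At 0.5 h it had 14.5 and 17.9 CPM after IL-1b, 18.9 and 23.6 after TNF, and 23.6 and 27.2 after LPS. Its log2 change of 5.98 ± 0.18 (adjusted p = 5.83e-14) was the largest of all genes called. Cxcl1, its neighbour on chromosome 5, had 0.38 to 1.83 CPM at 0 h and reached 70.7 and 91.5 CPM after IL-1b, 48.1 and 78.2 after TNF, but 4.09 and 6.74 after LPS. Of 8 CXC chemokines 4 rose and 0 fell (median 0.31). Cxcl10 and Cxcl5, the others, rose by log2 changes of 0.86 and 0.39, the latter a call lost under 13 of the 28 alternatives. Of 8 CC chemokines 5 rose and 0 fell (median 1.7). Ccl2 and Ccl7, which attract monocytes, rose from 29.6 ± 2.30 to 118 ± 59.7 CPM and from 15.2 ± 1.10 to 50.6 ± 20.1 CPM. Il6, a pleiotropic cytokine, rose from 1.83 ± 0.27 to 7.64 ± 2.72 CPM (log2 change 2.03, adjusted p = 7.17e-08). It was 1 of 3 genes called higher among 12 cytokines and colony-stimulating factors (median 0.25).

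Promoter sequence is shown for 5 of the risers, 3 with a match to the NF-kB (kB) motif, 1 with a cyclic AMP response element (CRE) and 1 with the CArG box that SRF binds. The sequences are the 250 bases upstream of the start in RefSeq (GRCm38.p6), on the gene's own strand, with motif matches in capitals.
Cxcl1: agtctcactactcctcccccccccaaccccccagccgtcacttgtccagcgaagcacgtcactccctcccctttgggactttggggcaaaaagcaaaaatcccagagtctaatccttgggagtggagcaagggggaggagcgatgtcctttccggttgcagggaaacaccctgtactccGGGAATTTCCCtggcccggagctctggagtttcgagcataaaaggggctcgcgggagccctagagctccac
Cxcl2: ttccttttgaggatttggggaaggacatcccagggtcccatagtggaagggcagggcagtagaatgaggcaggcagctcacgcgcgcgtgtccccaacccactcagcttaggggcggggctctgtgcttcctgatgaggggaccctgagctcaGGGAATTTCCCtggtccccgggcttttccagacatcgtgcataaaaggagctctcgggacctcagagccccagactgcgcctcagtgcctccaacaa
Nfkbia: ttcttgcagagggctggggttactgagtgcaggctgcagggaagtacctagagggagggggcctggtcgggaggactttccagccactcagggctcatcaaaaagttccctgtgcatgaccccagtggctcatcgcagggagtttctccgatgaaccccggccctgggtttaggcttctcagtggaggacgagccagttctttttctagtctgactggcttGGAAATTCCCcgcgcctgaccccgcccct
Dusp1: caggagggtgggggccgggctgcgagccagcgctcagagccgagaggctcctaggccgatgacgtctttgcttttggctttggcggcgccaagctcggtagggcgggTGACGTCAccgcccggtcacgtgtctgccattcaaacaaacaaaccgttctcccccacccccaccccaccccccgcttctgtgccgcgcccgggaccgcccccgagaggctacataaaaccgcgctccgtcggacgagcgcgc
Zfp36: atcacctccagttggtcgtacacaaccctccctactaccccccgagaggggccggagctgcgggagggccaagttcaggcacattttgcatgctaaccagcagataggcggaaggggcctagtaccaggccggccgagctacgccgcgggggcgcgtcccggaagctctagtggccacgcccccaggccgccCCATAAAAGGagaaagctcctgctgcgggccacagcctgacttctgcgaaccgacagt
They lie at chr5:90890995-90891244 on the plus strand (Cxcl1), chr5:90903649-90903898 on the plus strand (Cxcl2), chr12:55492648-55492897 on the minus strand (Nfkbia), chr17:26508473-26508722 on the minus strand (Dusp1) and chr7:28379229-28379478 on the minus strand (Zfp36). The matches in Cxcl1 and Cxcl2 are 2 overlapping kB matches each, which start 71 and 70 bases before the start of Cxcl1 and 97 and 96 bases before that of Cxcl2. The kB match of Nfkbia starts 29 bases before its start, the CRE (TGACGTCA) of Dusp1 143 bases and the CArG box of Zfp36 58 bases. Over windows of 250 bases before to 50 after the start, on both strands, the kB motif was found in 11 of the 39 genes with a window that rose at least 2-fold (28.2%). It was found in 14.4% of all 167 risers with a window, in 3.05% of the 164 genes that fell, and in 6.36% of the 9739 genes tested that had a window. The CArG box was found in 4.19% of risers and 1.62% of all, and the CRE in 7.19% and 3.61%. The AP-1 motif (TGANTCA) was found in 12% and 6.06%, and the Egr motif in 1.8% and 1.48%. Among genes that fell, the CArG box was found in 1.83%, the CRE in 3.66%, the AP-1 motif in 7.93% and the Egr motif in 0%. A letter match describes these windows and does not show binding.

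Of 18 adhesion and effector genes 7 rose and 0 fell (median 0.24), against 1.67% of all genes called higher. Ptgs2, which encodes the prostaglandin synthase COX-2, rose from 138 ± 15.9 to 309 ± 45.3 CPM (log2 change 1.16, adjusted p = 3.84e-10). Among 20 receptors and adaptors 3 rose and 1 fell (median -0.039): Tlr2 (log2 change 0.84), Cd14, the LPS co-receptor (0.79), and the kinase gene Map3k8 (0.84) rose, and Ticam1, an adaptor of Tlr3 and Tlr4, fell (-0.27, adjusted p = 0.0232). Among 16 IRF, STAT and SOCS genes 1 rose and 1 fell (median -0.021). Stat2, a subunit of the interferon-activated factor ISGF3, fell from 34.1 to 52.3 CPM at 0 h to 18.7 to 30.6 CPM at 0.5 h, without overlap (log2 change -0.74, adjusted p = 4.43e-05). Of 23 interferon-stimulated genes (median 0.047) and 24 cell cycle genes (median 0.0076) 0 were called, and at the share over all genes lists of this size would hold few calls or none. Among 20 p53 targets, 4 rose in these cells without p53 (median 0.043). They were Btg2 and Plk2, also on the list of immediate early genes, and Pmaip1 (log2 change 0.24) and Mdm2 (0.17), whose calls were lost under 18 and 16 of the 28 alternatives. Of 14 Id and BMP feedback genes, 2 rose, among them Id2 (log2 change 0.29), and Id1 fell (-0.38). Of 11 Notch pathway genes Hes1 fell (-0.51, adjusted p = 7.92e-05), of 16 clock genes Nfil3 rose (0.23) and Cry2 fell (-0.38), and of 34 collagen chain genes 0 were called. The calls of Id2, Ticam1, Cry2, Id1 and Nfil3 were lost under 14, 13, 11, 7 and 6 of the alternatives.

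The levels at later times show 0.5 h to be early for most of these genes. Of the 55 genes at least 2-fold higher at 0.5 h, 55 were still above 0 h at 1 h in the mean of the 6 libraries, 48 at 3 h and 31 at 8 h. The highest mean of the time course fell at 0.5 h for 4 of the 55, at 1 h for 34, at 3 h for 16 and at 8 h for 1. Fos was a gene with its highest mean at 0.5 h, with 222 ± 35.8 CPM against 181 ± 45.7 at 1 h and 14.2 at 3 h. Nr4a1 reached 616 ± 138 CPM at 1 h and was at 58.4 CPM at 3 h. Tnfaip3, at 72.6 CPM at 0.5 h, had 422 ± 255 CPM at 1 h, and Ccl2, at 118 CPM, had 491 ± 288 CPM at 1 h and 1589 ± 426 CPM at 3 h. The 208 genes lower at 0.5 h had a median log2 difference from 0 h of -0.39 at 0.5 h, -0.47 at 1 h and 0.068 at 3 h, on means over 6 libraries. Both sets were chosen on the 0.5 h values and share the 0 h libraries with these times.

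The genes that fell were of other kinds. Neat1, the long non-coding RNA that builds nuclear paraspeckles, had 148, 132 and 150 CPM in KO-1 at 0 h and 107, 92.7 and 101 CPM in KO-2 (IL-1b, TNF and LPS series). At 0.5 h it had 24.7, 27.7 and 35.1 CPM in KO-1 and 38.3, 33.6 and 50.3 CPM in KO-2. All 6 libraries at 0.5 h were below all 6 at 0 h (log2 change -1.80 ± 0.14, adjusted p = 6.38e-08). At 3 h the mean was 205 CPM, above all 6 libraries at 0 h. The fall was called also without the IL-1b series and with the length trend removed. The lincRNA AI480526 fell from 3.54 ± 0.79 to 1.01 ± 0.40 CPM (log2 change -1.82, adjusted p = 0.000108), a call that was lost with KO-2 alone. Spaca6, named for a sperm acrosome protein, fell from 8.08 ± 1.42 to 3.24 ± 0.99 CPM (log2 change -1.32), and Gm12258 from 1.55 ± 0.55 to 0.45 ± 0.16 CPM (-1.73). The other large falls were the zinc finger genes Zfp108 and Zfp866 and 4 genes without a symbol, which lay at log2 changes of -1.03 to -1.22.

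Zinc finger genes with a Zfp symbol made up 36 of the 208 genes that fell (17.3%) and 2.55% of all genes tested. Many genes of this name encode KRAB repressors of transposons. Of 326 tested, 36 fell and 2 rose, and the median log2 change of all 326 was -0.11. Zfp866 fell from 14.4 ± 2.45 to 6.43 ± 1.40 CPM (log2 change -1.16 ± 0.09, adjusted p = 1.52e-07), and Zfp108 from 1.54 ± 0.53 to 0.48 ± 0.21 CPM (-1.57, adjusted p = 0.00281). The 36 changes ran from -1.57 to -0.27, with 32 lower in all 6 pairs. Their median was -0.53 with IL-1b, -0.49 with TNF, -0.40 with LPS and -0.32 in WT. In WT 30 of the 36 were lower in all 3 series, against 14.5% of all genes tested. The WT median leaves out Zfp108 and Zfp418, which were not tested there. The share with a non-coding type was 11.1% of the annotated genes that fell and 3.18% of all. The family was singled out after its values were seen.

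A further 4 genes that fell were chosen after their values were seen and stand for no group. Txnip, an arrestin-like inhibitor of glucose uptake, fell from 159 ± 3.89 to 97.1 ± 9.57 CPM (log2 change -0.71 ± 0.04, adjusted p = 3.8e-09). Its relative Arrdc3 fell from 20.1 ± 1.32 to 11 ± 1.18 CPM (-0.88, adjusted p = 1.07e-07). Ddit3, which encodes the stress factor CHOP, fell from 85.0 ± 8.46 to 50.8 ± 6.80 CPM (-0.74, adjusted p = 3.46e-08), and Ddit4, an inhibitor of mTORC1, from 57.6 ± 3.71 to 41.2 ± 6.34 CPM (-0.48, adjusted p = 0.000334). For each of the 4, all 0.5 h libraries were below all 0 h libraries, a pattern that 1.03% of all genes tested showed.

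The genes that rose spanned less of the genome, by an amount that depended on the handling of the IL-1b length trend. The median genomic span was 6787.5 bp for the 214 risers, 3951 bp for the 55 that rose at least 2-fold, and 23352 bp for all genes tested. With the trend removed the risers had a median span of 12247 bp, and without the IL-1b series 9810 bp. The share over 50 kb was 8.41% of risers, 19.1% with the trend removed, 24.4% without the IL-1b series and 27.9% of all genes. None of the 55 spanned over 50 kb. The medians of exon number were 4 for risers, 5 for genes that fell and 8 for all genes, and genes that fell had a median span of 12458 bp.

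Each stimulus was then fitted alone, within the same 12 libraries. IL-1b called 847 genes higher (6.63%) and 1177 lower (9.21%), TNF 113 higher (0.884%) and 29 lower (0.227%), and LPS 89 higher (0.697%) and 22 lower (0.172%). With the trend on transcript length and GC content removed, IL-1b called 489 higher (3.83%) and 410 lower (3.21%), so that rises then outnumbered falls. IL-1b alone called 171 of the 214 pooled risers, TNF alone 96 and LPS alone 82, and 69 passed under each. Of the 208 that fell the counts were 143, 29, 18 and 14. Transcript length moved with the IL-1b values. Over 9634 genes the change of each pair had a Spearman correlation with transcript length of -0.55 (KO-1) and -0.62 (KO-2) after IL-1b, -0.22 and 0.41 after TNF, and -0.17 and 0.20 after LPS. These correlations describe genes that share libraries and are no test. With genes in 5 bins of equal size by transcript length, the IL-1b pairs had a median log2 change of 0.16 and 0.19 in the shortest bin and -0.19 and -0.20 in the longest.

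**Figure D3:**
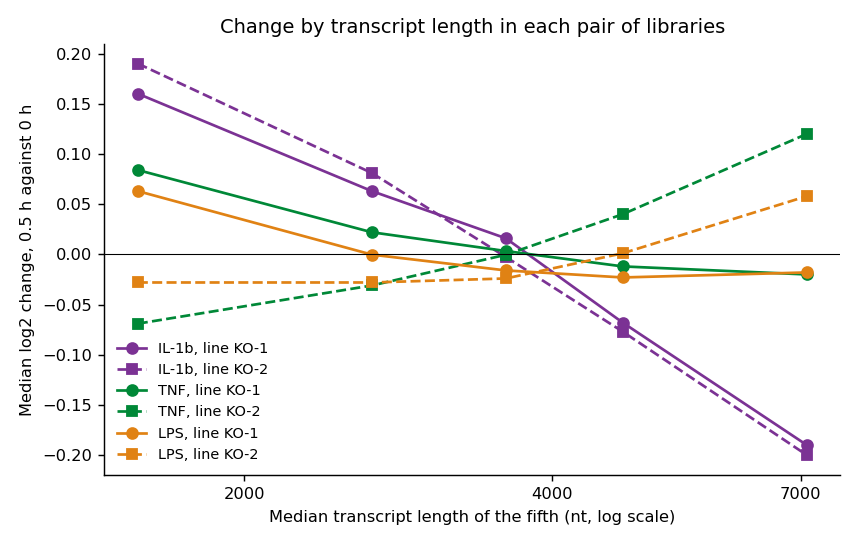
The median log2 change of 5 equal groups of genes is plotted against their median transcript length in nucleotides on a log axis, with a line for each of the 6 pairs of libraries. Both IL-1b pairs run from above 0 for short transcripts to below 0 for long ones, while the TNF and LPS pairs of KO-1 and KO-2 slope in opposite directions.

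The ribosomal protein genes, which have short transcripts, were higher in the IL-1b libraries. After IL-1b 78 of 81 were called higher (median 0.34), after TNF 0 and after LPS 0. With the length and GC trend removed, 27 of 81 were still called after IL-1b (median 0.14). The pooled comparison called 14 of 81 (median 0.17), 15 with the trend removed (median 0.078) and 0 without the IL-1b series (median 0.079). After Nfkbia, Gadd45b and Ccl2, the smallest adjusted p-values between stimuli among the named genes belonged to Hipk2, Cbl, Bmpr2 and Tead1, which span 84785 to 227488 bp. They had log2 changes of -0.87, -1.05, -1.17 and -0.89 after IL-1b and 0.0052 to 0.43 after TNF or LPS. For Bmpr2, a BMP receptor, the IL-1b libraries had 52.5 and 44.2 CPM at 0 h and 22.9 and 20 CPM at 0.5 h. With the trend on length and GC content removed from each library, its IL-1b change was -0.78. How far the IL-1b changes of these genes and of the ribosomal proteins come from the trend was not tested.

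The pooled comparison was therefore repeated without the trend and without the IL-1b series. With the trend removed, 310 genes were higher (2.43%) and 313 lower (2.45%), among them 191 of the 214 and 205 of the 208. Without the IL-1b series, 166 were higher (1.32%) and 103 lower (0.816%), among them 125 of the 214 and 90 of the 208. Fos, Nr4a1, Egr1, Dusp1, Nfkbia and Neat1 were called in both. Their log2 changes without the IL-1b series were 4.25, 3.88, 2.81, 2.56, 2.29 and -1.68.

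Differences between the 3 stimuli were called for 437 genes (3.42%), and for 125 with the length and GC trend removed, 86 of them shared. Of the 214 pooled risers 29 were among the 437, and LPS gave the smallest change of the 3 in 25 of the 29. Against the mean of the cytokines, LPS was lower for 22 genes (0.172%) and higher for 11 (0.0861%), and 19 of the 22 and 1 of the 11 were pooled risers. IL-1b was above TNF for 52 genes (0.407%) and below for 463 (3.62%), in libraries that carry the length trend. The 437 became 129 without the KO-1 library at 0 h of the IL-1b series, and 202 to 282 without any of 4 other libraries (KO-1 IL-1b 0.5 h, KO-2 IL-1b 0 h and 0.5 h, and KO-2 TNF 0.5 h).

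The log2 change of Nfkbia was 3.66 ± 0.08 with IL-1b, 3.55 ± 0.08 with TNF and 0.87 ± 0.09 with LPS, and LPS minus the mean of the cytokines was -2.74 ± 0.11 (adjusted p = 4.8e-13). Tnfaip3 had 3.63, 3.71 and 1.33, a difference of -2.33 (adjusted p = 6.35e-07). Cxcl1 had 6.09, 6.44 and 2.47 (difference -3.80, adjusted p = 0.000558), and Zfp36 3.67, 3.77 and 2.54 (difference -1.18, adjusted p = 0.000112). Ccl2 had 2.51, 2.33 and 0.54 (difference -1.88, adjusted p = 2.89e-09). Irf1, a transcription factor of the interferon response, had 44.6 and 49.5 CPM after IL-1b, 40.5 and 53 after TNF, and 19.0 and 23.4 after LPS, against 20.5 to 25.8 CPM at 0 h. Gadd45b, a stress sensor and NF-kB target, had 65.4 and 75.0 CPM after IL-1b, 54.6 and 59.1 after TNF, and 17.4 and 17.1 after LPS, against 24.3 to 30.6 CPM at 0 h. It was above the 0 h range after either cytokine and below it after LPS, and the pooled test did not call it (log2 change 0.69, adjusted p = 0.128). At 1 h the LPS libraries had mean levels of 166 CPM for Nfkbia and 108 CPM for Tnfaip3, where the IL-1b libraries had 535 and 658 CPM and the TNF libraries 455 and 499 CPM.

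Of the 30 further immediate early genes 7 differed between stimuli, of the 8 AP-1 genes 2 and of the 13 Kruppel-like factors 3. Over all genes tested the share was 3.42%. The IL-1b libraries carry the length trend, and its part in these counts was not tested. For Fos, Nr4a1, Egr1 and Dusp1 no difference was called. Fos had log2 changes of 4.56, 4.28 and 4.23 after IL-1b, TNF and LPS (adjusted p of the difference between stimuli 0.543), Nr4a1 4.14, 3.93 and 3.84 (0.602), Egr1 2.88, 2.95 and 2.68 (0.397), and Dusp1 2.69, 2.59 and 2.53 (0.734). For LPS minus the mean of the cytokines, Fos had -0.19 ± 0.16, Nr4a1 -0.20 ± 0.16, Egr1 -0.24 ± 0.10 and Dusp1 -0.11 ± 0.11. Jun and Junb lay between these groups. Jun had 2.53, 2.28 and 1.60 (adjusted p = 6.07e-06) and Junb 2.21, 2.00 and 1.27 (adjusted p = 0.00034). Btg2, Atf3, Ier2, Nfkbiz and Dusp5 also differed between stimuli, with their smallest changes after LPS, at 2.52, 2.63, 1.90, 1.82 and 0.58.

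Tnf and the chemokines Ccl3 and Ccl4 had the opposite order. Tnf, the cytokine gene itself, had 0.62 to 1.30 CPM at 0 h. At 0.5 h it had 28.1 and 25 CPM after LPS, 7.42 and 7.34 after TNF, and 0.22 and 0.75 after IL-1b. The LPS and TNF libraries were above the 0 h range, while the IL-1b change of -1.32 ± 0.46 was not called (adjusted p = 0.0526). LPS was above the mean of the cytokines by 3.68 ± 0.47 (adjusted p = 0.000151). Ccl3 had log2 changes of 1.26, 1.21 and 2.68 and Ccl4 0.87, 1.61 and 2.77 after IL-1b, TNF and LPS. The stimuli differed for both (adjusted p = 0.0263 and 0.0117), but LPS minus the cytokines was not called for either (adjusted p = 0.0553 and 0.063). Macrophages are a known source of these 3 transcripts. The macrophage markers, at 360 to 464 CPM in sum at 0 h, were detected in every library, and their part in these values was not tested. In bulk RNA, fewer responding cells and less RNA per cell cannot be told apart.

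**Figure D4:**
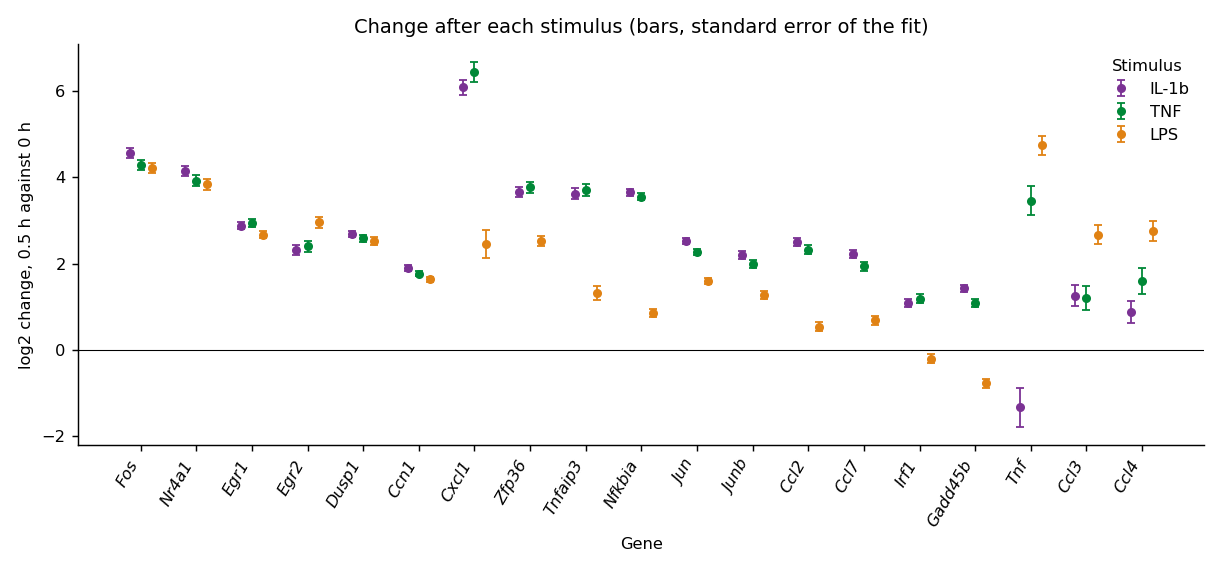
For 19 genes the log2 change from 0 h to 0.5 h is plotted after IL-1b, TNF and LPS, with the standard error of the fit as bars. From Fos to Ccn1 the 3 stimuli lie close together, from Cxcl1 to Gadd45b LPS lies lowest, and for Tnf, Ccl3 and Ccl4 it lies highest.

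A difference between KO-1 and KO-2 in the change from 0 h was called for 16 genes (0.125%), all with the higher change in KO-2. Leaving out 1 library moved this number to between 6 and 172, the latter without the KO-2 library after IL-1b at 0.5 h. They included the nuclear long non-coding RNAs Neat1 (log2 difference 0.98, adjusted p = 0.00512), Malat1 (1.14, adjusted p = 0.0203) and Meg3 (1.23, adjusted p = 5.24e-05), and mitochondrial transcripts. Malat1, a nuclear speckle RNA, had 155 to 199 CPM at 0 h and 61.2 to 126 CPM at 0.5 h in KO-1, and 104 to 131 and 103 to 148 CPM in KO-2. Mitochondrial genes took 0.653 to 0.704% of counts at 0 h and 0.376 to 0.514% at 0.5 h in KO-1, and 0.598 to 0.706% and 0.553 to 0.883% in KO-2. Neat1 fell in KO-2 as well, from 92.7 to 107 CPM to 33.6 to 50.3 CPM, and the part of the shift shared with Malat1 and Meg3 was not tested.

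WT cells moved in the same direction for most of these genes. In WT 107 of 12351 genes were called higher (0.866%) and 12 lower (0.0972%), from 3 pairs of libraries with the stimulus as the block. Of the 209 p53-/- risers tested in WT 96 were also called higher there, and of the 205 genes that fell 12 were called lower. Of the 214, 161 were higher in all 3 WT series, against 14.3% of all genes, and of the 208, 121 were lower in all 3, against 14.5%. Among the 50 genes at least 2-fold higher in p53-/- cells and tested in WT, 30 had the larger change in p53-/- cells. The 50 were chosen on their p53-/- values, which favours a larger change there, so this count does not compare the genotypes.

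A genotype difference in the change was called for 5 of 12506 genes (0.04%). They were Egr1, Ccn1, Ccn2, Btg2 and Nr4a1, and each had the larger log2 change in p53-/- cells. Egr1 had 346 to 376 CPM in WT at 0 h and 180 to 212 CPM in p53-/- cells, while at 0.5 h the ranges were 1160 to 1445 and 1119 to 1520 CPM. Its log2 change was larger by 0.97 ± 0.09 (adjusted p = 4.84e-06). Ccn1 went from 1128 ± 29.9 to 2322 ± 112 CPM in WT (n = 3) and from 567 ± 33.0 to 1939 ± 144 CPM in p53-/- cells (difference 0.73 ± 0.07, adjusted p = 4.84e-06). Ccn2 went from 1843 ± 52.6 to 2595 ± 25.4 CPM in WT, and its difference was 0.46 ± 0.06 (adjusted p = 0.000176). Btg2 went from 126 ± 7.25 to 523 ± 121 CPM in WT and Nr4a1 from 51.7 ± 0.59 to 444 ± 124 CPM, with differences of 1.00 ± 0.16 (adjusted p = 0.00808) and 0.89 ± 0.16 (adjusted p = 0.0253). For all 5 genes the p53-/- libraries were below the WT libraries at 0 h without overlap. At 0.5 h Btg2, Ccn1 and Ccn2 were still below WT without overlap, and Egr1 and Nr4a1 overlapped. WT came from 1 line, so genotype and line cannot be told apart.

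**Figure D5:**
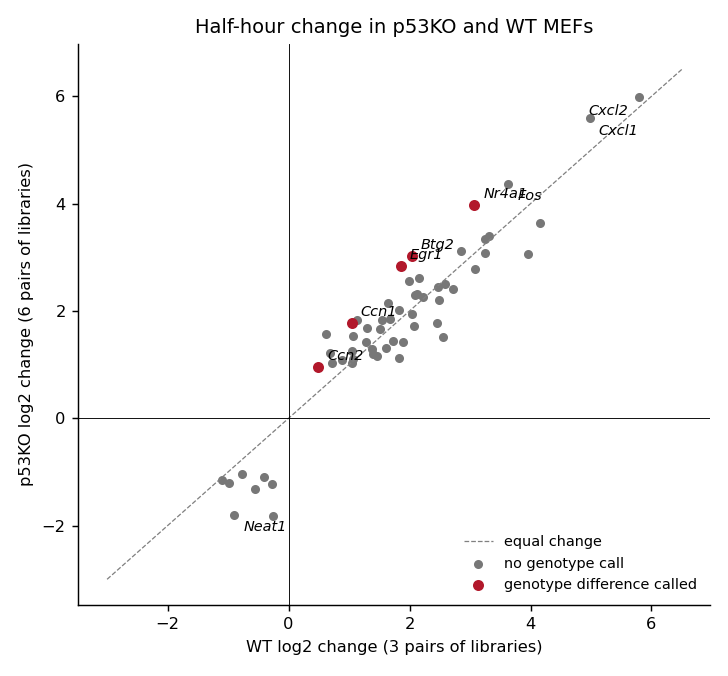
The log2 change from 0 h to 0.5 h in WT (horizontal, 3 pairs) is set against that in p53-/- cells (vertical, 6 pairs) for the genes with at least a 2-fold change in p53-/- cells and for the 5 genes with a genotype difference, in red. The dashed line marks equal change, and the 5 red points lie above it.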

How the data were processed

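RNA with poly(A) tails was sequenced with paired ends from a stranded kit, per the labels' protocols. The table the authors deposited holds raw counts, which are whole numbers of reads for each Ensembl gene and library. Of tools, STAR, featureCounts and DESeq appear in the submitters' processing notes, with mm9 as the build. Versions, the strand setting and the annotation release are not given in the sources used here. Rows that name no gene held 22.7 to 26.9% of counts in the 12 libraries and were left out. Symbols and transcript lengths came from GENCODE M21 (32919 of 37991 IDs), and promoters from RefSeq GRCm38.p6.

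Counts were fitted with edgeR 4.0.16 in R 4.3.3 (quasi-likelihood test, TMM factors 0.98 to 1.02 in the pooled fit, genes kept by filterByExpr) with series and line as blocks. Residual degrees of freedom were 7 in the pooled fit, and 10.3 came from the prior. Each stimulus and the differences between stimuli came from 1 fit of the same 12 libraries, and the lines, WT and the genotypes had a fit each. Benjamini-Hochberg adjustment covered all genes of a fit, and calls needed an adjusted p under 0.05. In counts simulated for the pooled comparison over 12778 genes, 88% of 1.5-fold and 100% of 2-fold changes were recovered, and 8 unchanged genes were called. The simulation gave every gene the same dispersion and a small difference between lines. It had no series effect, no length trend and no change that varied with the line, so recovery in the real libraries may be lower.

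The genes and lists were chosen with earlier results of these data known. Named genes were the 20 largest rises and 10 largest falls (at least 1 CPM in the higher group, the same direction in all 6 pairs), from each list at most 4 genes, those of smallest adjusted p when pooled, and the 8 smallest p-values between stimuli. Genes outside this rule were chosen after their values were seen. Changes per pair added 0.25 CPM, and length trends used genes over 8 CPM. Alternatives covered scaling with DESeq2 1.42.0, its test, filters, blocks, an offset for transcript length and GC content (MASS 7.3.60.0.1), series, the 30 p53-/- libraries in 1 fit, single libraries and lines. The 0 h libraries of a line in the IL-1b and LPS series differed least (chi-squared per degree of freedom 1.33 and 1.66, against 2.59 to 3.6 with the TNF series) and were also summed. Whether they came from the same culture is not given, so the 6 libraries at 0 h may not be independent. The SDs and residual degrees of freedom count them as separate. No pair of libraries was identical. Intervals between libraries cover these cultures only.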

Additional observations from a re-analysis of the deposited data

Results flagged for a closer look

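Differences between stimuli at 0.5 h were called for 22 genes named in the text, by edgeR's quasi-likelihood F test over the 3 changes. The adjusted p was 2.57e-12 for Nfkbia, 4.47e-09 for Gadd45b, 1.34e-08 for Ccl2, 1.53e-06 for both Tnfaip3 and Ccl7, 2.07e-06 for Tnf, 3.79e-06 for Irf1 and 6.07e-06 for Jun. It was 0.000172 for Zfp36, 0.00034 for Junb, 0.000467 for Ier2, 0.000556 for Btg2, 0.000737 for Cxcl1 and 0.00315 for Atf3. It was 0.0117 for Ccl4, 0.0167 for Nfkbiz, 0.0263 for Ccl3 and 0.0377 for Dusp5. Of the genes whose levels were lower after IL-1b, Hipk2 had 1.44e-07, and Cbl, Bmpr2 and Tead1 had 7.86e-07 each. The IL-1b libraries carry the trend on transcript length, and its part in these values was not tested.

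The change differed between the lines for Neat1 (adjusted p = 0.00512), Malat1 (0.0203) and Meg3 (5.24e-05), with the lower change in KO-1. In KO-2 Neat1 fell after each stimulus. Malat1 and Meg3 in KO-2 were lower after IL-1b (131 to 116 and 224 to 192 CPM). They changed little after TNF (104 to 103 and 195 to 187 CPM) and were higher after LPS (126 to 148 and 237 to 292 CPM). The change differed between genotypes for Egr1 and Ccn1 (4.84e-06 each), Ccn2 (0.000176), Btg2 (0.00808) and Nr4a1 (0.0253), each larger in p53-/- cells, which had lower levels than WT at 0 h.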

How the results depend on the processing

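The 86 genes followed had all been called in the pooled test, and the alternatives reuse its libraries. They kept the direction of their pooled change under each of the 28 alternatives that tested them. Of these genes 53 also kept their side of the threshold, and 241 of 2405 values lost it. Fos stayed between 4.16 and 4.55 (log2), Dusp1 between 2.56 and 2.63, Cxcl1 between 5.00 and 6.35, Nfkbia between 2.29 and 3.59, and Neat1 between -2.31 and -1.33. Counts of called genes moved far more. In place of the 214 pooled rises and 208 falls, 371 and 383 were called with no filter on low counts, and 129 and 120 with no series block. With the 0 h libraries of IL-1b and LPS summed, also in a fit without the series block, 96 and 58 were called. The last alternative and the fit below with series and trend both removed were chosen after seeing the data. Without the LPS series 117 rose and 104 fell, and falls numbered 103 without the IL-1b series, 102 without the TNF series, 313 with the length and GC trend removed and 382 with 30 p53-/- libraries in the fit. Without the IL-1b series and with the trend removed, 196 rose and 153 fell.

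The number of the line was fitted as a block because the rule of the comparison asks for it. Differences between KO-1 and KO-2 correlated between the 15 pairs of groups with a median r of 0.209 (0.0509 to 0.497, 11 over 0.1), so the data do not show a pairing in every group. With no replicate block 176 rose and 178 fell in the pooled test, the IL-1b count was 986, the stimuli differed for 46 genes, LPS and the cytokines for 15, and IL-1b and TNF for 33; Hipk2 then missed the threshold (adjusted p = 0.0667). With a replicate block within each series 143 rose and 130 fell.

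IL-1b alone called 2024 genes, 1001 in the DESeq2 test and 899 with the trend removed. With no filter, TNF alone called 241 and LPS alone 200, the stimuli differed for 795, LPS and the cytokines for 104, the lines for 124, WT called 262 and the genotypes differed for 43. With the trend removed, the stimuli differed for 125, IL-1b and TNF for 104, the lines for 40, and WT called 211. WT called 75 in the DESeq2 test. With 30 libraries the stimuli differed for 184 and IL-1b and TNF for 163. With the 0 h libraries summed, the fit had no series block and all stimuli shared a common 0 h baseline. TNF alone then called 301, the stimuli differed for 2803, LPS and the cytokines for 196, and IL-1b and TNF for 3010. These differences between stimuli compare levels at 0.5 h and include any difference between series. The main test compares changes from the 0 h of each series. The causes of these shifts in count were not tested.

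Leaving out a library or a line, pooled rises ranged from 78 to 345 and falls from 12 to 272, both lowest with KO-2 alone. Falls numbered 138 and 133 without the KO-1 library of IL-1b at 0 h or 0.5 h, and 122 and 128 without that of TNF, where rises numbered 132 and 135. IL-1b alone ranged from 522 (without its KO-1 library at 0 h) to 2333, TNF alone from 99 to 167 and LPS alone from 72 to 117. Differences between stimuli ranged from 129 to 650, LPS against the cytokines from 17 to 45, IL-1b against TNF from 81 (without the KO-2 library of TNF at 0.5 h) to 750, the lines from 6 to 172 and the genotypes from 4 to 6. At these depths (7311825 to 15355994 counts) and with 2 lines, in simulated data the pooled test recovered 88% of 1.5-fold changes, and the test between stimuli 48% of them after LPS alone. The simulated data had the same dispersion for every gene and no length trend, so these shares may be too high for the real libraries.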
